A study of Mus musculus with 18 samples.

Results

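Estradiol, the main circulating estrogen, was compared with its ethanol vehicle in organoids grown from mouse mammary epithelium. The comparison uses 6 of the 18 libraries of the series: 3 of organoids given 10 nM estradiol for 11 days and 3 of organoids given 96% ethanol diluted 1:1,000 for the same time. The sample titles and the treatment label place each library in its group. All 6 libraries come from wild type C57BL/6 mice, nulliparous and about 24 weeks old, and no group carries an allele or another agent. The epithelial cells were kept for 12 days in EpiCult-B medium, with 5% fetal bovine serum in the first 24 h only. The series design speaks of 3 glands from 3 mice and of triplicates, but the labels tie no library to a mouse, so p-values rest on the spread among 3 libraries a group, which may be technical. Polyadenylated RNA was sequenced with a strand-marking kit, and values are CPM, counts scaled to the TMM-adjusted library total. CPM is not scaled by gene length, so levels are compared between libraries and not between genes.

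Estradiol acts through the receptors encoded by Esr1 and Esr2, which bind DNA at estrogen response elements or attach to other DNA-bound factors. In the mammary gland the receptor is found in a subset of luminal cells, the hormone-sensing cells, which send growth signals to neighbouring cells without the receptor. Estrogen drives ductal growth at puberty and raises the progesterone receptor, and its action in adult epithelium reaches the cell cycle, metabolism, transport and secretion.

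The libraries held 20637473 to 24312079 counts. Of 56691 features in the table, 15358 passed the filter on low counts and were tested. Libraries of one group lay 0.339 to 0.373 apart in log2 CPM (root mean square over genes) and libraries of different groups 0.529 to 0.558, and no 2 libraries agreed within sampling noise. Markers of both epithelial layers were present at high levels: the summed level of 13 pan-luminal markers was 5641 to 5965 CPM and that of 16 basal myoepithelial markers 9074 to 9976 CPM. The summed level of 16 immune markers was 3.06 to 4.63 CPM, and the defining gene Nkg7 had no count. The 6 abundant features that resemble ribosomal or repeat RNA differed within the ethanol group: the most abundant one took 7.83, 6.41 and 5.12% of the counts in ethanol replicates 1, 2 and 3 and 4.85, 4.58 and 4.20% in the estradiol libraries.

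Promoter sequences are shown first for genes of 3 lists in which many members were called, because they hold short motifs of known transcription factors next to the start of the gene. Of 33 interferon response genes 29 rose and 1 fell, of 22 glycolysis genes 0 rose and 18 fell, and of 35 S phase genes 22 rose, 2 fell and 11 were not called, where over all genes tested 17.4% rose and 16.6% fell. The S phase rises numbered 13 with the length factors recovered from the deposited tables, and the S phase falls numbered 0 or 1 without any single library. The windows are RefSeq's, build GRCm38.p6, from 250 bases before to 50 bases after each gene's start, and 10556 of the 15331 tested symbols have one. The capitals mark 1 copy of the motif in each stretch, and further copies, some overlapping it, stand in lower case in those of Isg15, Ifit1, Gbp3, Bst2, Pgk1 and Slc16a3. Each stretch is written 5′ to 3′ on the strand of its gene, and a motif on the opposite strand appears as its reverse complement. The first set holds the core of the interferon-stimulated response element, GAAA and GAAA with 2 bases of any kind between, to which complexes of STAT and IRF proteins bind.
Gbp2, chr3:142620584-142620633, plus strand: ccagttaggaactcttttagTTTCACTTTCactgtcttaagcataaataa
Isg15, chr4:156200855-156200904, minus strand: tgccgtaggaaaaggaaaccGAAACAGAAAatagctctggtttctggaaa
Ifit1, chr19:34640784-34640833, plus strand: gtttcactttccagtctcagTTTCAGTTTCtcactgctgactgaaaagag
Gbp3, chr3:142559985-142560034, plus strand: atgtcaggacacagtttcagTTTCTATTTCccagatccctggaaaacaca
Bst2, chr8:71537567-71537616, minus strand: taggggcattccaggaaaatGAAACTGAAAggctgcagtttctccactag
Rsad2, chr12:26456543-26456592, minus strand: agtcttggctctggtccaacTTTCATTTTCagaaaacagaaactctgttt

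All 6 of these genes were taken from the list members that rose with estradiol. Rsad2, which encodes the antiviral enzyme viperin, had 6.79, 7.52 and 9.38 CPM in ethanol replicates 1 to 3 and 13.6, 19.5 and 18.5 CPM in estradiol replicates 1 to 3. The ubiquitin-like modifier gene Isg15 had 27.1, 41.1 and 38.4 CPM with ethanol and 66.8, 74.9 and 87.0 CPM with estradiol. Bst2, which encodes the virus-retaining membrane protein tetherin, had 55.5, 72.8 and 62.9 CPM with ethanol and 97.1, 97.6 and 116 CPM with estradiol. In each of the 3 genes the lowest estradiol library lay above the highest ethanol library. The fitted values were log2 fold change 1.13, SE 0.14, adjusted p = 2.1e-05 for Rsad2, log2 fold change 1.102, SE 0.12, adjusted p = 5.1e-06 for Isg15 and log2 fold change 0.70, SE 0.085, adjusted p = 1.7e-05 for Bst2 (edgeR quasi-likelihood test, Benjamini-Hochberg adjustment over all genes tested). Gbp2, Gbp3 and Ifit1 had log2 fold changes of 0.60 (SE 0.06), 0.89 (SE 0.11) and 0.86 (SE 0.10). The motif lies in the windows of 12 of the 26 interferon response genes that have one (46.2%), against 3.66% of all tested genes with a window, 5.16% of genes that rose and 3.35% of genes that fell. Parp14, with one of the 2 lowest p-values of the list, has no window in the table.

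The second set holds the core of the hypoxia response element, ACGTG, to which HIF1 binds, in 4 glycolysis genes. The letters are short and occur in windows of 28.6% of the tested genes that have one, and they form part of the MYC E-box CACGTG, which overlaps them.
Aldoa, chr7:126799356-126799400, minus strand: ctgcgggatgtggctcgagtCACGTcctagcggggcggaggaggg
Pgk1, chrX:106186949-106186993, plus strand: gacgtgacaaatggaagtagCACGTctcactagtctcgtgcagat
Pfkfb3, chr2:11553965-11554009, minus strand: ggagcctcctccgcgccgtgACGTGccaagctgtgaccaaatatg
Slc16a3, chr11:120949020-120949064, plus strand: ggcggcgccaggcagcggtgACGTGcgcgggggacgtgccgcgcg

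These 4 genes were taken from the list members that fell. Pfkfb3, which makes the activator of phosphofructokinase, had 61.7, 61.2 and 49.6 CPM in ethanol replicates 1 to 3 and 28.8, 33.8 and 30.7 CPM in estradiol replicates 1 to 3. The lactate exporter gene Slc16a3 had 136, 143 and 132 CPM with ethanol and 95.1, 101 and 101 CPM with estradiol. Neither gene had overlapping groups, with log2 fold changes of -0.89 (SE 0.081) and -0.47 (SE 0.047). The motif was found in windows of 15 of 22 glycolysis genes (68.2%), while genes that rose (28.7%) and genes that fell (29.1%) held it about as often as all tested genes. Egln3, which encodes a prolyl hydroxylase of HIF and is a known target of it, fell with the glycolysis genes: it had 714, 708 and 611 CPM with ethanol and 205, 239 and 224 CPM with estradiol (log2 fold change -1.61, SE 0.064, adjusted p = 1.7e-10). So did Ndufa4l2, a mitochondrial protein gene also known as a HIF target (from 50.5 to 19.5 CPM, log2 -1.37, SE 0.056). Pdk1, which encodes the kinase that restrains pyruvate dehydrogenase, fell as well (from 181 to 120.3 CPM, log2 -0.59, SE 0.045). The part of HIF in these falls was not tested.

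A further motif, TTTCCCGC, is a site of the E2F factors that switch on replication genes. It is also in a window of Pold1, an S phase gene that fell (log2 -0.17, SE 0.059). Of the windows that hold it before the gene start, 2 of S phase genes that rose are shown.
Mcm7, chr5:138172021-138172068, minus strand: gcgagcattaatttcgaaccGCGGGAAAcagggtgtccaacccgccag
Cdc6, chr11:98907993-98908040, plus strand: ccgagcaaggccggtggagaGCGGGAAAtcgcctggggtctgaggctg

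Mcm7, a subunit of the replicative helicase, rose from 84.3 to 98.7 CPM (log2 0.23, SE 0.049; the call was lost with the recovered length factors, log2 0.13, adjusted p = 0.16), and Cdc6, which loads that helicase, rose from 5.52 to 8.001 CPM (log2 0.53, SE 0.13). Windows of 6 of 27 S phase genes (22.2%) and of 2.24% of the tested genes with a window held the motif. A second form of the site, TTTGGCGC, was also in windows of 6 of 27 (22.2%) and of 1.11%. The MYC E-box was in windows of 8 of 33 ribosome biogenesis genes (24.2%) and of 11.4% of the tested genes with a window. It was in 22.7% of glycolysis, 11.1% of S phase and 3.85% of interferon response genes with a window. The core ACGTG was in 42.4% of ribosome biogenesis, 37% of S phase and 7.69% of interferon response genes with a window. Both motifs thus exceeded their share of all tested genes in glycolysis, which fell, and in ribosome biogenesis, where 30 of 40 genes rose. The full palindrome of the estrogen response element, GGTCA and TGACC with 3 bases of any kind between, was in 23 of 32851 RefSeq windows. None of the 10556 tested genes with a window held it there. All motifs were searched on both strands, and a gene was counted if any of its windows held the motif. A match is a description of the letters in these windows, and the absence of one says only that the letters are not there.

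**Figure D1:**
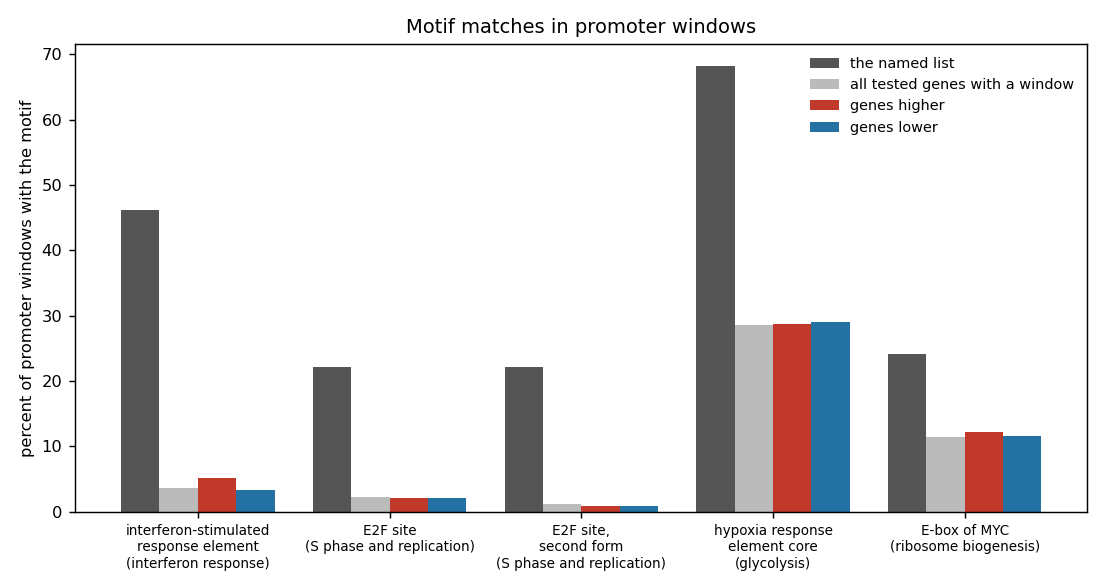
Percent of genes with a promoter window (250 bases before to 50 after the gene start) that hold each motif in any of their windows. Bars give the gene list named under the motif (dark grey), all tested genes with a window (light grey), genes that rose (red) and genes that fell (blue). The interferon list stands at 46.2% against 3.66% of tested genes, and the glycolysis list at 68.2% against 28.6%.

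Across the transcriptome the response was broad and mostly small. Of the 15358 genes tested, 2668 rose (17.4%) and 2552 fell (16.6%), together 34%, and in 46.4% of genes the 2 groups did not overlap. Of the genes that rose 1181 (44.3%) changed by less than 1.2-fold, and of those that fell 760 (29.8%). Larger changes were more often falls: between 1.5-fold and 2-fold there were 280 rises and 424 falls, and between 2-fold and 4-fold 197 rises and 301 falls. At 4-fold or more the numbers were 59 and 67. In all, rises of at least 2-fold made up 1.67% of the genes tested and falls of that size 2.4%. The common biological coefficient of variation was 5.27%. Of the 10138 genes not called, 4467 (44.1%) had a 95% interval within 1.2-fold of no change and 7000 (69%) within 1.5-fold, so a large share of the genes without a call were measured closely and the rest were not.

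The direction of change differed with abundance. Among genes of 20 to 100 CPM 1389 rose and 959 fell, whereas among genes of 1 to 5 CPM 194 rose and 335 fell. Of the 233 genes of at least 500 CPM, 122 (52.4%) fell and 55 rose. Of 2296 predicted or unnamed genes tested 306 fell and 105 rose, with a median log2 fold change of -0.14, while of 13062 named genes 2246 fell and 2563 rose, with a median of 0.0088. The predicted or unnamed genes had a median level of 1.51 CPM and the named genes 27.4 CPM. All genes of 1 to 5 CPM had a median log2 of -0.13, and the part of abundance in this difference was not tested.

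**Figure D2:**
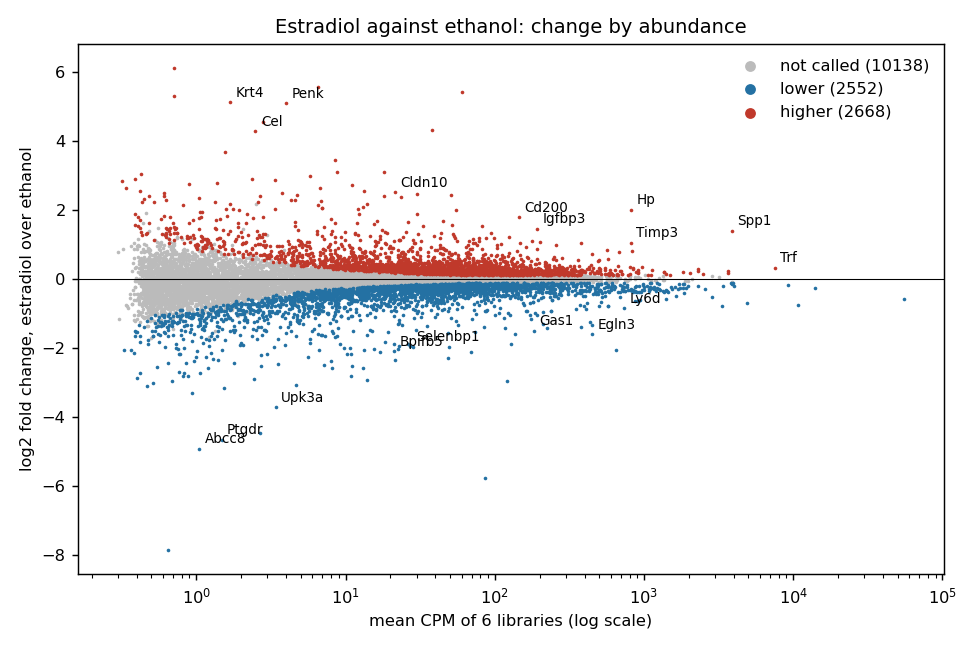
Log2 fold change of each tested gene (estradiol over ethanol) against its mean CPM over the 6 libraries on a log scale. Red points rose (2668), blue points fell (2552) and grey points were not called (10138), and the named points are genes with large changes at each level of abundance.

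The largest gain in CPM was that of Spp1, which encodes the secreted phosphoprotein osteopontin. It had 2189.8, 2159 and 2069 CPM in ethanol replicates 1 to 3 and 5663, 5551 and 5716 CPM in estradiol replicates 1 to 3. The libraries of each group lay close together and far from the other group (log2 fold change 1.40, SE 0.034, adjusted p = 8.0e-13). Trf, the transferrin gene, which is a major iron-carrying protein of rodent milk, gained next most and rose from 6659 to 8337 CPM (log2 0.32, SE 0.043). Hp, the gene of the hemoglobin-binding plasma protein haptoglobin, had 355, 315 and 318 CPM with ethanol and 1325, 1294 and 1335 CPM with estradiol. Its estradiol libraries lay close together at 4.002 times the ethanol level (log2 fold change 2.001, SE 0.046, adjusted p = 5.6e-13). Of the matrix genes, Timp3, an inhibitor of metalloproteases, rose from 535 to 1101 CPM, Tnc, the matrix glycoprotein tenascin C, rose from 599 to 1055 CPM, and Thbs1, thrombospondin 1, rose from 495 to 855 CPM, with log2 fold changes of 1.04, 0.82 and 0.79. The gains of the 10 features that gained most made up 15.8% of all gains in mean CPM. The losses were more concentrated, with 36.5% in 10 features, of which ENSMUSG00000119584.1, Lars2, Mir6236, AA474408 and Gm10800 resemble ribosomal or repeat RNA, beside the abundant protein genes mt-Co1, Gapdh, Eef1a1, Eef2 and Aldoa.

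Those ribosomal or repeat-like features are given with their libraries because they also varied among the ethanol libraries. ENSMUSG00000119584.1 had 82018, 65437 and 51353 CPM with ethanol and 48120.0, 44758 and 40751 CPM with estradiol. Lars2, a mitochondrial leucyl-tRNA synthetase gene whose annotation is known to draw ribosomal reads in mouse data, had 17611, 12443 and 10520.0 CPM with ethanol and 8899, 7846 and 7263 CPM with estradiol. In both, the ethanol libraries differed among themselves more than the estradiol libraries did and the groups did not overlap, and the log2 fold changes were -0.57 (SE 0.11) and -0.76 (SE 0.13). Gm10800 differed from them, with 852, 931 and 1365 CPM with ethanol and 160.2, 217 and 372 CPM with estradiol: ethanol replicate 3 was its highest library. Without these features and mt-Rnr1, 2623 genes rose and 2606 fell.

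The genes with the largest rises in the middle of the abundance range encode proteins of several kinds. Cd200, a membrane glycoprotein that signals to an inhibitory receptor on myeloid cells, had 69.9, 62.2 and 65.4 CPM in ethanol replicates 1 to 3 and 219, 227 and 233 CPM in estradiol replicates 1 to 3. The estradiol level was 3.44 times that of ethanol, and the groups did not overlap (log2 fold change 1.78, SE 0.05, adjusted p = 4.7e-12). Igfbp3, which binds insulin-like growth factors, had 83.6, 110.2 and 116 CPM with ethanol and 289, 290.5 and 268 CPM with estradiol (log2 1.45, SE 0.087). Ccnd2, the gene of cyclin D2, which drives entry into S phase, had 69.8, 77.6 and 79.9 CPM with ethanol and 189, 181 and 151 CPM with estradiol (log2 1.199, SE 0.074). Its estradiol libraries were spread more widely than its ethanol libraries, but all lay higher. Myh14, a nonmuscle myosin heavy chain, rose from 113 to 241 CPM, and Cldn10, a claudin of tight junctions that passes ions between cells, rose from 6.43 to 36.4 CPM, with log2 fold changes of 1.097 (SE 0.049) and 2.504 (SE 0.09). Krt6a, a keratin of activated epithelium, rose from 401 to 720.2 CPM (log2 0.84, SE 0.064).

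Falls of similar size were found in the same range. Gas1, a membrane-anchored co-receptor of Hedgehog proteins, had 257, 270.4 and 285 CPM in ethanol replicates 1 to 3 and 100.0, 99.5 and 88.3 CPM in estradiol replicates 1 to 3. The groups were far apart (log2 fold change -1.497, SE 0.055, adjusted p = 8.4e-11). Selenbp1, which encodes a methanethiol oxidase, fell from 43.3 to 11.1 CPM, and Bpifb5, of the BPI-fold family of secreted lipid-binding proteins, fell from 34.2 to 7.97 CPM, with log2 fold changes of -1.96 (SE 0.093) and -2.10 (SE 0.083). Ly6d, a surface protein of stratified epithelium, fell from 945 to 522 CPM (log2 -0.86, SE 0.044). Csmd1, a large membrane protein with complement control domains, fell from 36.0 to 9.34 CPM, and here the ethanol libraries differed among themselves, with 45.1, 33.7 and 29.1 CPM with ethanol and 9.31, 8.45 and 10.3 CPM with estradiol.

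**Figure D3:**
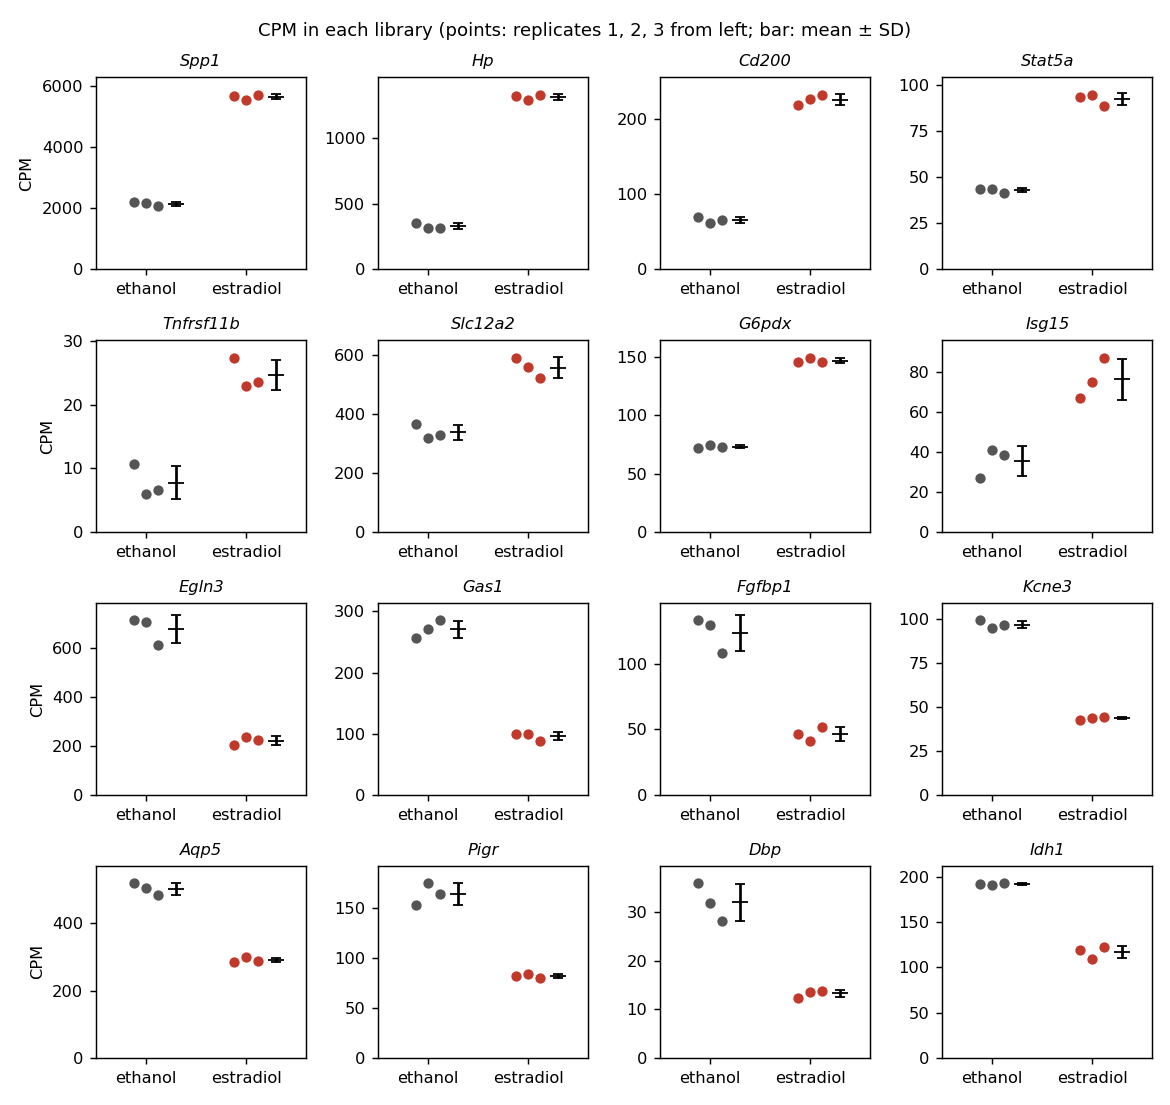
CPM of 16 genes in each library, with ethanol in grey and estradiol in red; points are replicates 1, 2 and 3 from left to right, and the bar gives the mean with its SD (n = 3). In each panel the groups do not overlap; 8 genes are higher and 8 lower in the estradiol libraries.

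A few genes were near absent in one group. Krt4, a keratin of the suprabasal layer of mucosal epithelium, had 1, 3 and 2 counts with ethanol and 75, 81 and 59 with estradiol, a ratio of 37.1 (95% counting interval 16.8 to 102). Scgb3a1, a secretoglobin, had 1 count in all with ethanol and 92 with estradiol, a ratio of 95.3 (16.7 to 3.8e+03). Pcp4, a small regulator of calmodulin, had 2 counts with ethanol and 91 with estradiol, a ratio of 47.1 (12.7 to 395). All 3 were counted in every estradiol library. Penk, the precursor of the enkephalins, had 0.227 ± 0.107 CPM with ethanol and 7.77 ± 0.955 CPM with estradiol, and Cel, a bile salt-activated lipase known from milk and pancreas, 0.239 ± 0.0603 CPM with ethanol and 4.74 ± 0.422 CPM with estradiol (SD, n = 3).

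In the other direction Abcc8, the sulfonylurea receptor subunit of potassium channels, had 45, 39 and 52 counts with ethanol and 3, 0 and 1 with estradiol, an ethanol to estradiol ratio of 32.8. Ptgdr, a receptor of prostaglandin D2, had 194 counts with ethanol and 7 with estradiol, a ratio of 26.8. Sp5, a transcription factor induced by WNT signals, and Gsdma, a gasdermin of skin-type epithelium, had ratios of 8.01 and 8.55. Upk3a, a uroplakin of the urothelial membrane, fell from 6.31 to 0.476 CPM (log2 -3.72, SE 0.25). Pde2a would pass for a further gene lost with estradiol, with 36, 48 and 0 counts with ethanol and 0 in the estradiol libraries, but a second feature carries the same symbol. The sum of both features was 53, 48 and 58 counts with ethanol and 51, 42 and 56 with estradiol, so the groups overlapped. The pseudogene Rps13-ps2 had 0, 92 and 307 counts in the estradiol libraries and 0 in the ethanol libraries, while its parent gene Rps13 had 8422 to 11416, and the authors' assignment of reads between such copies is not stated.

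Among the receptors of steroid hormones and prolactin, 8 of 9 were measured well enough to test, 2 rose and 3 fell. The progesterone receptor gene was among those that rose. Nr3c1, the glucocorticoid receptor gene, fell and had 103, 103 and 92.7 CPM in ethanol replicates 1 to 3 and 72.7, 78.2 and 75.4 CPM in estradiol replicates 1 to 3 (log2 fold change -0.40, SE 0.052, adjusted p = 3.0e-05), and its groups did not overlap. Esr1 itself had 28.5, 27.0 and 29.7 CPM with ethanol and 15.8, 15.0 and 14.1 CPM with estradiol, 0.528 of the ethanol level with estradiol. Nr3c2, the mineralocorticoid receptor gene, fell from 11.0 to 8.76 CPM (log2 -0.34, adjusted p = 0.019), a call that was lost with the recovered length factors (log2 -0.057, adjusted p = 0.83) and without ethanol replicate 2 (log2 -0.26, adjusted p = 0.095), without estradiol replicate 1 (log2 -0.33, adjusted p = 0.053) or without estradiol replicate 2 (log2 -0.32, adjusted p = 0.058). Prlr, the prolactin receptor gene, and Ghr, the growth hormone receptor gene, were not called, with 95% intervals of the log2 fold change of -0.17 to 0.054 and -0.079 to 0.14. The membrane estrogen receptor gene Gper1 had an interval of -0.96 to -0.069 and was called only without ethanol replicate 3 (log2 -0.65, adjusted p = 0.028). Esr2 had 1 to 9 counts per library and was not tested.

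Other nuclear receptors fell more often than they rose, with 2 up and 8 down of 25 tested (median log2 -0.11, against -0.0060 for all genes tested). Pparg, the regulator of fat storage, rose from 3.16 to 6.74 CPM (log2 1.09, SE 0.15). Thra, the thyroid hormone receptor alpha gene, Rora, which encodes a receptor that activates clock genes, and Vdr, the vitamin D receptor gene, fell by log2 fold changes of -0.53, -0.78 and -0.40. The falls numbered 5 without estradiol replicate 3 or without ethanol replicate 3, and the median was -0.072, -0.055 and -0.071 without estradiol replicate 3, ethanol replicate 1 and ethanol replicate 3. Of 20 coregulators of the estrogen receptor 15 were not called. The pioneer factor gene Foxa1, which opens chromatin for the receptor, fell from 105 to 76.9 CPM (log2 -0.44, SE 0.072), and Tfap2c, a further factor of luminal cells, fell from 156 to 121 CPM (log2 -0.37, SE 0.052).

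Signalling genes moved in both directions. Of 25 genes of the JAK and STAT pathway, which carries signals of prolactin and cytokines, 5 rose and 8 fell. Stat5a, which mediates prolactin signals in the gland, had 43.5, 43.6 and 41.6 CPM in ethanol replicates 1 to 3 and 93.4, 94.9 and 88.9 CPM in estradiol replicates 1 to 3. The libraries of each group lay close together, and the estradiol level was 2.15 times that of ethanol (log2 fold change 1.11, SE 0.045, adjusted p = 2.4e-10). Its paralog Stat5b rose from 47.2 to 64.1 CPM (log2 0.44, SE 0.048). The feedback inhibitor Socs3 went the other way and had 197, 196 and 196 CPM with ethanol and 116, 117 and 115 CPM with estradiol (log2 fold change -0.76, SE 0.039, adjusted p = 2.5e-09). Jak2, the kinase of the prolactin receptor, fell from 93.8 to 70.5 CPM and Lifr, the receptor of leukemia inhibitory factor, from 65.1 to 48.6 CPM (log2 -0.41 and -0.42).

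In the FGF family 4 of 10 tested genes fell and 2 rose, with a median log2 of -0.59. Without ethanol replicate 1 or 3 or estradiol replicate 1 or 2 only 1 rose, and the median was -0.38 without estradiol replicate 3 and -0.25 with the recovered length factors. Fgfbp1, a carrier that releases FGFs from the matrix, had 133, 129 and 108 CPM in ethanol replicates 1 to 3 and 46.6, 41.3 and 51.7 CPM in estradiol replicates 1 to 3 (log2 fold change -1.41, SE 0.082, adjusted p = 8.4e-09). Fgfr2, whose epithelial isoform receives stromal FGFs in the gland, had 56.6, 64.9 and 67.8 CPM with ethanol and 35.9, 34.8 and 34.3 CPM with estradiol (log2 fold change -0.85, SE 0.063, adjusted p = 1.4e-07). Both were lower in every estradiol library, whereas the ligand gene Fgf2 rose from 4.45 to 7.53 CPM (log2 0.76, SE 0.17). Of the 12 Hedgehog pathway genes tested 4 fell and 0 rose (33.3% called, near the 34% of all genes tested). The falls included Gas1 and the inhibitor gene Sufu (from 60.2 to 48.3 CPM, log2 -0.32). With ethanol replicate 1 left out 1 Hedgehog gene rose.

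Ligands and receptors of the TNF family fell more often than they rose (9 and 4 of 22). Tnfrsf11b, which encodes osteoprotegerin, the soluble decoy of RANK ligand, rose and had 10.7, 5.92 and 6.66 CPM in ethanol replicates 1 to 3 and 27.4, 23.0 and 23.6 CPM in estradiol replicates 1 to 3. Ethanol replicate 1 was highest of its group yet below every estradiol library (log2 fold change 1.67, SE 0.16, adjusted p = 1.3e-06). Tnfrsf11a, which encodes the receptor RANK, fell from 15.2 to 10.7 CPM (log2 -0.50, SE 0.092), and the death receptor gene Tnfrsf21 fell from 141 to 77.9 CPM (log2 -0.85, SE 0.056). Of 21 NF-kappaB pathway genes 9 rose, including the inhibitors Tnfaip3 and Tnip1 (log2 0.35 and 0.30), and 3 fell. Among 43 genes of interleukins and their receptors 10 rose and 4 fell (32.6% called, near the 34% of all genes tested). The receptor antagonist gene Il1rn rose from 44.5 to 87.6 CPM (log2 0.98, SE 0.049), and Il18rap, a subunit of the interleukin 18 receptor, rose from 2.68 to 11.2 CPM (log2 2.06, SE 0.14), whereas Il13ra1 fell from 293 to 192 CPM (log2 -0.61, SE 0.039).

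Of 22 immediate early genes, which respond within minutes to growth signals, 7 fell and 3 rose after 11 days. Klf4, a factor of epithelial differentiation, had 18.3, 17.4 and 15.4 CPM in ethanol replicates 1 to 3 and 51.7, 48.8 and 46.9 CPM in estradiol replicates 1 to 3 (log2 fold change 1.53, SE 0.069, adjusted p = 5.4e-10). Egr3, known as a target of the estrogen receptor in breast cells, had 31.2, 28.0 and 31.7 CPM with ethanol and 77.3, 77.6 and 69.5 CPM with estradiol (log2 fold change 1.31, SE 0.06, adjusted p = 7.0e-10). In both the lowest estradiol library lay well above the highest ethanol library. Klf10 and Btg2 fell, with log2 fold changes of -0.41 and -0.49. The KLF and SP family as a whole had 3 rises and 10 falls in 23 genes, so Klf4 stood against the direction of most called relatives. The SOX factors changed in 83.3% of 12 genes, more often down (6) than up (4). Sox7 fell from 21.6 to 7.77 CPM (log2 -1.47, SE 0.11), Sox10 fell from 164 to 119.7 CPM (log2 -0.46) and Sox9, a factor of mammary stem and luminal progenitor cells, rose from 168 to 203 CPM (log2 0.28). Foxo1, a factor restrained by insulin signalling, fell from 296 to 211 CPM (log2 -0.49, SE 0.048), and Fbxo32, the ubiquitin ligase gene that it is known to switch on, fell from 399 to 289.5 CPM (log2 -0.46, SE 0.038).

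Of 22 circadian clock genes tested 11 fell, 2 rose and 9 were not called, with a median log2 of -0.36. Dbp, a factor driven directly by the clock, had 36.0, 32.0 and 28.2 CPM in ethanol replicates 1 to 3 and 12.4, 13.6 and 13.9 CPM in estradiol replicates 1 to 3 (log2 fold change -1.27, SE 0.09, adjusted p = 7.0e-08). The rises were Arntl, which encodes the clock activator BMAL1 (from 18.6 to 26.2 CPM, log2 0.49, SE 0.081), and the repressor gene Bhlhe41 (from 254 to 317 CPM, log2 0.32). The period genes Per1, Per2 and Per3 had log2 fold changes of -0.43, -0.42 and -0.68 and the repressor gene Nr1d1, which is known to act on Arntl, of -0.58; these 4 are named after their values were seen. The hour of collection of each library is not given in the sources used here, and its part in these values was not tested.

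**Figure D4:**
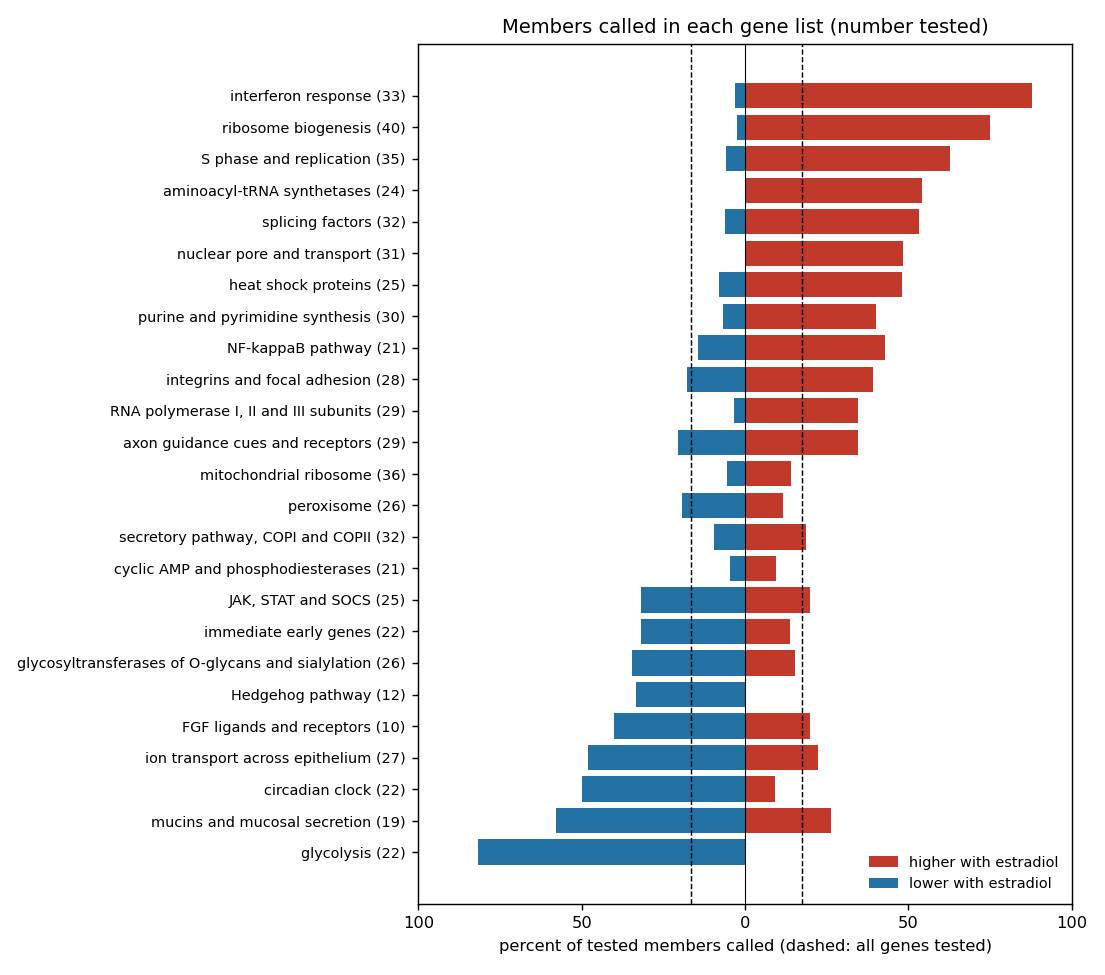
Percent of tested members of 25 gene lists that rose (red, to the right) or fell (blue, to the left), with the number tested in brackets; dashed lines mark the shares over all genes tested, 17.4% higher and 16.6% lower. The top rows are nearly all red. The bottom row, glycolysis, is all blue, and the mucosal secretion, clock, ion transport and FGF rows above it hold red as well as blue. Secretory pathway and peroxisome genes lie near the dashed lines.

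Genes of transport across the epithelium were called often. Of 27 ion transport genes 6 rose and 13 fell (70.4% called). Slc12a2, which encodes the basolateral cotransporter that loads secretory cells with chloride, had 368, 319.8 and 329 CPM in ethanol replicates 1 to 3 and 592, 560.1 and 521 CPM in estradiol replicates 1 to 3 (log2 fold change 0.72, SE 0.056, adjusted p = 2.1e-07). Kcne3, a subunit of basolateral potassium channels, had 99.1, 94.9 and 96.3 CPM with ethanol and 42.8, 43.7 and 44.1 CPM with estradiol (log2 fold change -1.15, SE 0.043, adjusted p = 8.7e-11). The water channel gene Aqp5 had 519, 504 and 483 CPM with ethanol and 285, 299 and 288 CPM with estradiol (log2 fold change -0.79, SE 0.041, adjusted p = 2.5e-09). In these 3 genes no ethanol library overlapped an estradiol library, and the chloride loader rose while the potassium and water channels fell. Aqp3, which carries water and glycerol, fell from 53.6 to 29.7 CPM (log2 -0.85). The potassium channel genes as a family had 11 falls and 2 rises in 34 (38.2% called, near the 34% of all genes tested). The rises were Kcnj15 (log2 1.25) and Kcns3 (log2 1.88).

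Over all 240 solute carriers rises (47) and falls (50) were nearly balanced. Slc20a1, a phosphate importer, had 39.0, 46.0 and 40.7 CPM with ethanol and 123, 124 and 120.4 CPM with estradiol (log2 fold change 1.55, SE 0.056, adjusted p = 7.5e-11), 2.92 times the ethanol level. Slc40a1, which encodes the iron exporter ferroportin, rose from 33.7 to 60.4 CPM (log2 0.84, SE 0.057), Slc39a4, a zinc importer, rose from 36.9 to 61.7 CPM (log2 0.74, SE 0.055), and the transferrin receptor gene Tfrc fell from 315 to 252 CPM (log2 -0.32, SE 0.047). The zinc transporter gene Slc39a6, known as LIV1 and induced by estrogen in human breast cancer cells, fell from 90.4 to 68.6 CPM (log2 -0.40, SE 0.044). Of 21 calcium handling genes 3 rose and 3 fell (28.6% called, against 34% of all genes tested); the endoplasmic pump gene Atp2a3 fell from 12.3 to 4.16 CPM (log2 -1.56, SE 0.11).

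Genes of mucosal secretion had 11 falls and 5 rises in 19 tested (median log2 -0.30). Pigr, which carries immunoglobulin A across epithelium, had 153, 175 and 164 CPM in ethanol replicates 1 to 3 and 82.2, 83.9 and 80.3 CPM in estradiol replicates 1 to 3 (log2 fold change -0.997, SE 0.052, adjusted p = 2.5e-09), and the estradiol level was 0.501 of that of ethanol. Ltf, the gene of the iron-binding antimicrobial protein lactoferrin, had 198, 164 and 150.3 CPM with ethanol and 58.4, 61.7 and 70.6 CPM with estradiol (log2 fold change -1.43, SE 0.088, adjusted p = 1.6e-08). The rises numbered 1 without estradiol replicate 1 and 2 without ethanol replicate 3, whereas the count of falls moved by less than 1.5 times. Enzymes that build O-glycans and add sialic acid had 9 falls and 4 rises in 26: the sialyltransferase gene St3gal1 fell from 52.1 to 33.6 CPM and B3gnt3, which extends core chains, from 48.2 to 30.4 CPM (log2 -0.64 and -0.67), while Galnt10, which adds GalNAc to proteins, rose from 42.6 to 58.3 CPM (log2 0.45). Serine proteases of the kallikrein, Tmprss and Prss families fell in 11 of 21 genes and rose in 4. Prss2, a trypsin, fell from 2.77 to 0.306 CPM (log2 -3.15, SE 0.32) and Tmprss4 from 19.3 to 9.8 CPM (log2 -0.98, SE 0.11).

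Genes of integrins and focal adhesion, of cadherins and desmosomes, and of ADAM and ADAMTS proteases rose more often than they fell, and proteoglycan genes did not. Of 28 integrin and focal adhesion genes 11 rose. Itgb6, which pairs with the alpha v subunit to activate TGF-beta, had 13.5, 13.9 and 13.4 CPM in ethanol replicates 1 to 3 and 26.8, 25.7 and 23.2 CPM in estradiol replicates 1 to 3 (log2 fold change 0.89, SE 0.076, adjusted p = 5.3e-07), and Itgb5 rose from 166 to 229.7 CPM (log2 0.47). The 5 falls included Itga8 (from 123 to 89.0 CPM, log2 -0.47), and the falls numbered 3 without ethanol replicate 1 or 2. Among cadherins and desmosomal genes 7 of 21 rose and 4 fell. Cdh2 and Cdh11, which encode the mesenchymal cadherins N-cadherin and cadherin 11, had 20.8, 26.4 and 31.8 CPM with ethanol and 59.6, 61.0 and 56.5 CPM with estradiol, and 9.48, 10.6 and 11.7 CPM with ethanol and 24.1, 23.6 and 23.0 CPM with estradiol, respectively. Both were higher in every estradiol library (log2 1.17, SE 0.10, and 1.16, SE 0.085). Of 30 metalloproteases of the ADAM and ADAMTS families 10 rose and 3 fell: Adam12, which sheds growth factors from the cell surface, had 25.4, 25.7 and 27.2 CPM with ethanol and 81.4, 77.0 and 73.7 CPM with estradiol (log2 fold change 1.57, SE 0.054, adjusted p = 4.7e-11), and Adamts2, which trims procollagens, rose from 5.56 to 14.4 CPM (log2 1.37). Of 30 proteoglycan and hyaluronan genes 10 rose and 10 fell: the hyaluronan synthase gene Has2 rose from 56.1 to 85.8 CPM (log2 0.61, SE 0.056), whereas the syndecan genes Sdc4 and Sdc2 and Ndst1, which sulfates heparan chains, fell (log2 -0.26, -0.29 and -0.29).

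Guidance molecules, first known from axons, changed in 55.2% of 29 genes, 10 up and 6 down. Plxna2, a plexin receptor of semaphorins, had 5.76, 4.45 and 4.76 CPM in ethanol replicates 1 to 3 and 22.2, 23.2 and 22.5 CPM in estradiol replicates 1 to 3 (log2 fold change 2.18, SE 0.10, adjusted p = 6.2e-10), and the secreted semaphorin gene Sema3d had 1.3, 1.18 and 1.51 CPM with ethanol and 6.34, 6.00 and 3.86 CPM with estradiol (log2 fold change 2.03, SE 0.23, adjusted p = 8.4e-06). Robo1, the receptor of SLIT proteins, which restrain branching in the gland, fell and had 51.5, 48.7 and 48.6 CPM with ethanol and 32.3, 32.4 and 29.9 CPM with estradiol (log2 fold change -0.65, SE 0.054, adjusted p = 3.9e-07). Plexin and semaphorin genes thus stood at both ends, since Sema3f and Sema4c fell (log2 -0.47 and -0.45).

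Markers of the basal layer were called in both directions. Of 16 basal markers 8 fell and 3 rose. Mylk, the kinase gene of myosin light chains, had 39.8, 44.2 and 46.5 CPM in ethanol replicates 1 to 3 and 25.9, 28.2 and 22.3 CPM in estradiol replicates 1 to 3 (log2 fold change -0.77, SE 0.08, adjusted p = 3.6e-06). Cnn1, the smooth muscle protein calponin, fell from 25.8 to 15.8 CPM and Lmod1, an actin nucleator of smooth muscle, from 9.53 to 3.81 CPM (log2 -0.71 and -1.32). Myl9, a myosin light chain gene that is not among the 16 markers, fell from 79.3 to 53.8 CPM (log2 -0.56). The rises among the 16 were the keratin genes Krt14 (from 3360.1 to 3967 CPM, log2 0.24), Krt17 (log2 0.25) and Krt15 (from 23.5 to 55.3 CPM, log2 1.24). The summed level of the 16 markers overlapped between groups, 9074 to 9736 CPM with ethanol and 9457 to 9976 CPM with estradiol. In bulk RNA fewer cells of a type and less RNA per cell cannot be told apart.

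Fibroblast markers rose in 8 and fell in 1 of 14 tested genes (median log2 0.55), and their summed level was 1129 to 1213 CPM with ethanol and 1241 to 1486 CPM with estradiol. Col1a1 had 88.2, 89.6 and 88.9 CPM in ethanol replicates 1 to 3 and 145, 139.9 and 123 CPM in estradiol replicates 1 to 3 (log2 fold change 0.61, SE 0.057, adjusted p = 1.3e-06), and Col1a2 rose from 94.6 to 149.6 CPM (log2 0.66). Gpx3, a secreted glutathione peroxidase, rose most, from 3.87 to 22.8 CPM (log2 2.56, SE 0.15), while the fibulin gene Fbln1 fell (log2 -0.48). Dcn, Fn1 and Pdgfra, which mark fibroblasts as well, were not called, with log2 fold changes of 0.015, 0.079 and -0.19; they are named after their values were seen. Of the matrix and adhesion genes above some rose and others, such as Itga8, Sdc2 and Sdc4, fell, and the part of fibroblasts in them was not tested. Of 15 hormone-sensing luminal markers 7 fell and 6 rose, with a summed level of 1578 to 1616 CPM with ethanol and 1346 to 1402 CPM with estradiol. The difference in the sum rests mainly on few abundant members, and the median log2 of the list was -0.060. Cited4, a transcriptional coactivator gene, rose from 31.5 to 74.6 CPM (log2 1.24, SE 0.048), whereas Cited1 fell from 17.9 to 3.91 CPM (log2 -2.19, SE 0.15).

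In several lists the machinery of RNA and protein synthesis rose by small amounts in many genes at once. Of 24 cytosolic aminoacyl-tRNA synthetases, which charge tRNAs with amino acids, 13 rose and 0 fell (median log2 0.16); without ethanol replicate 1 or estradiol replicate 1, 1 fell. Aars, for alanine, had 109, 108 and 114 CPM in ethanol replicates 1 to 3 and 155, 148 and 150.2 CPM in estradiol replicates 1 to 3 (log2 fold change 0.45, SE 0.043, adjusted p = 1.7e-06). Of 31 nuclear pore and transport genes 15 rose and 0 fell, with Kpna2, an importin, from 102 to 136 CPM, and Nup93, a scaffold nucleoporin, from 40.0 to 53.3 CPM (log2 0.42 and 0.41). Splicing factors had 17 rises and 2 falls in 32 genes, such as Srsf6 (from 143 to 180.5 CPM, log2 0.34). The rises among them numbered 11 without ethanol replicate 2 or without estradiol replicate 3, and the falls 0 or 1 without any single library. Of 50 DEAD and DEAH box helicases 27 rose and 2 fell (median log2 0.18), none by 2-fold, and 1 fell without ethanol replicate 2 or estradiol replicate 2. Ddx21, a helicase of ribosomal RNA processing, had 102, 106 and 105 CPM with ethanol and 153, 149.8 and 150.0 CPM with estradiol (log2 fold change 0.53, SE 0.041, adjusted p = 1.9e-07).

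Genes that supply nucleotides were called higher more often than lower, and those of methyl group supply in both directions. Of 30 purine and pyrimidine synthesis genes 12 rose and 2 fell; 1 fell without ethanol replicate 1, estradiol replicate 2 or estradiol replicate 3. Gart, which carries out several steps of purine synthesis, rose from 89.3 to 113 CPM and Tyms, thymidylate synthase, from 19.9 to 27.6 CPM (log2 0.34 and 0.47), while the salvage kinase gene Tk1 fell from 70.5 to 55.5 CPM (log2 -0.35). In the one-carbon and methionine cycle 9 genes rose and 6 fell of 25. Cbs, which turns homocysteine into cystathionine, had 17.0, 17.1 and 18.9 CPM in ethanol replicates 1 to 3 and 37.8, 39.6 and 39.1 CPM in estradiol replicates 1 to 3 (log2 fold change 1.14, SE 0.063, adjusted p = 4.7e-09), and Mat2a, which makes S-adenosylmethionine, rose from 105 to 157 CPM (log2 0.58, SE 0.047). The formyltetrahydrofolate dehydrogenase genes Aldh1l1 and Aldh1l2 fell (log2 -0.65 and -0.73). Heat shock genes rose in 12 of 25 and fell in 2: Hspa4, an exchange factor of HSP70, had 287, 291 and 299 CPM with ethanol and 442, 417 and 429 CPM with estradiol (log2 fold change 0.56, SE 0.04, adjusted p = 7.9e-08). All 10 called tubulins of 19 rose, among them Tubg1 (from 23.6 to 34.8 CPM, log2 0.56), the gamma-tubulin that nucleates microtubules, and Tubb2b (log2 0.36).

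Not all parts of the same machinery shared this. Mitochondrial ribosomal protein genes were called in 16.9% of 77, fewer than the 34% of all genes tested, and RAB GTPases in 21.6% of 51. Secretory pathway genes of the COPI and COPII coats had 6 rises and 3 falls in 32 (28.1% called). Among the RAB genes Rab17, which is linked to polarized sorting in epithelial cells, fell from 12.9 to 4.77 CPM (log2 -1.44, SE 0.11) and Rab32 rose from 13.4 to 26.1 CPM (log2 0.96, SE 0.074). Initiation factors were split, 20 up and 10 down of 52: Eif4g2 rose from 857 to 1096 CPM (log2 0.36), whereas Eif4a2 and Eif4b fell (log2 -0.48 and -0.33). The abundant elongation factor genes Eef1a1 and Eef2 fell (log2 -0.17 and -0.21), as did the ribosomal protein gene Rps18 (log2 -0.33).

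In metabolism single steps of a pathway differed. G6pdx, the entry enzyme gene of the pentose phosphate pathway, which yields NADPH, had 72.2, 74.2 and 72.9 CPM in ethanol replicates 1 to 3 and 145, 149 and 145 CPM in estradiol replicates 1 to 3 (log2 fold change 1.003, SE 0.042, adjusted p = 2.8e-10), and the next oxidative enzyme gene Pgd rose from 137 to 175 CPM (log2 0.35, SE 0.041). Other sources of NADPH fell: Idh1, cytosolic isocitrate dehydrogenase, had 192, 191 and 193 CPM with ethanol and 119.6, 109 and 122 CPM with estradiol (log2 fold change -0.71, SE 0.047, adjusted p = 3.2e-08), and malic enzyme 1, Me1, fell from 181 to 138 CPM (log2 -0.39). Tkt, a transketolase of the non-oxidative branch, fell from 375 to 323 CPM (log2 -0.21). The oxidative entry of the pathway was thus higher while the other cytosolic dehydrogenases named were lower. Breakdown of branched-chain amino acids had 7 falls and 1 rise in 22 genes, with Echs1 and Acat1 at log2 -0.26 and -0.31. Its share called, 36.4%, was near the 34% of all genes tested, and its median log2 was -0.070. Glutathione transferases fell in 10 and rose in 2 of 19 genes (median log2 -0.31), Gstt1 from 28.7 to 21.3 CPM and Mgst3 from 26.5 to 19.5 CPM among the falls (log2 -0.43 and -0.45) and Gsto1 from 130.2 to 168 CPM among the rises (log2 0.37). Genes of the tricarboxylic acid cycle (33.3% of 27 called) and of peroxisomes (30.8% of 26) were close to the background of 34%. Without ethanol replicate 2 or estradiol replicate 2 the falls of both lists numbered 2 and 3 in place of 5 each, and the tricarboxylic acid cycle falls 3 without ethanol replicate 3, estradiol replicate 1 or estradiol replicate 3.

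Of 385 C2H2 zinc finger genes, 71 fell and 19 rose (median log2 -0.10), 3 of them by 2-fold. They were called in 23.4% against 34% of all genes tested, of which 16.6% fell, and the zinc finger falls numbered 45 without estradiol replicate 2 and 34 with the recovered length factors. Zfp395 fell from 102 to 66.5 CPM (log2 -0.62, SE 0.045) and Zfp703, known from luminal breast cancer, rose from 53.8 to 69.2 CPM (log2 0.36, SE 0.056). Small nucleolar RNA host genes, whose introns carry snoRNAs, fell in 5 of 9, with none higher, and the falls numbered 0 to 3 without ethanol replicate 1, 2 or 3 or estradiol replicate 1 or 2. The host gene Gas5 had 292, 283 and 286 CPM in ethanol replicates 1 to 3 and 219.8, 201 and 229 CPM in estradiol replicates 1 to 3 (log2 fold change -0.41, SE 0.048, adjusted p = 1.3e-05). The imprinted noncoding RNA H19 fell from 76.9 to 53.5 CPM (log2 -0.52, SE 0.057). Chromatin genes were called in both directions (8 up, 10 down of 39), the rises numbering 5 without estradiol replicate 1. Hdac11, a deacetylase gene, had 64.0, 63.8 and 64.4 CPM with ethanol and 33.3, 37.5 and 29.8 CPM with estradiol (log2 fold change -0.93, SE 0.066, adjusted p = 7.1e-08), and the linker histone gene H1f0, which is known to rise in cells that stop dividing, fell from 276 to 193 CPM (log2 -0.52, SE 0.04). Of 30 regulators of apoptosis 5 rose and 9 fell. Bid and Bax, which promote it, and Bcl2, which blocks it, rose (log2 0.70, 0.28 and 0.47), while Bmf and Casp9, which promote it, and Birc2, an inhibitor, fell (log2 -0.48, -0.33 and -0.29; the call of Birc2 was lost with the recovered length factors, adjusted p = 0.078, and with limma on the deposited signal, adjusted p = 0.087). The falls numbered 5 without ethanol replicate 2, estradiol replicate 1 or estradiol replicate 2, and 3 with the recovered length factors.

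Genes often used as references in quantitative PCR were examined one by one. Of 28, 7 rose, 7 fell and 14 were not called. Gapdh had 3395, 3439.9 and 3322 CPM in ethanol replicates 1 to 3 and 2272, 2324 and 2402 CPM in estradiol replicates 1 to 3 (log2 fold change -0.54, SE 0.034, adjusted p = 2.2e-08) and Pgk1 fell from 1683 to 1116 CPM (log2 -0.59, SE 0.046), to 0.689 and 0.663 of the ethanol level. The ribosomal references Rps18, Rpl13a and Rplp0 had log2 fold changes of -0.33, -0.29 and -0.21. Actb and Ywhaz rose by log2 fold changes of 0.20 and 0.17, and Gusb by 0.38 (SE 0.051). Tbp and Polr2a were higher by 0.22 and 0.21, and their calls depended on the libraries: that of Tbp was lost without ethanol replicate 1 (adjusted p = 0.057) or estradiol replicate 2 (0.059), and that of Polr2a without ethanol replicate 2 (0.11), estradiol replicate 1 (0.069) or estradiol replicate 2 (0.12). The genes closest to no change were B2m, with a 95% interval of the log2 fold change of -0.088 to 0.10, Atp5b with -0.051 to 0.10, Sdha with -0.058 to 0.12 and Hprt with -0.071 to 0.14. Ppia, a cyclophilin gene, had 1184, 1255 and 1217 CPM with ethanol and 1189, 1114 and 1223 CPM with estradiol, with an interval of -0.14 to 0.035. The intervals of all 14 genes without a call lay within 1.2-fold of no change on these TMM-scaled totals.

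**Figure D5:**
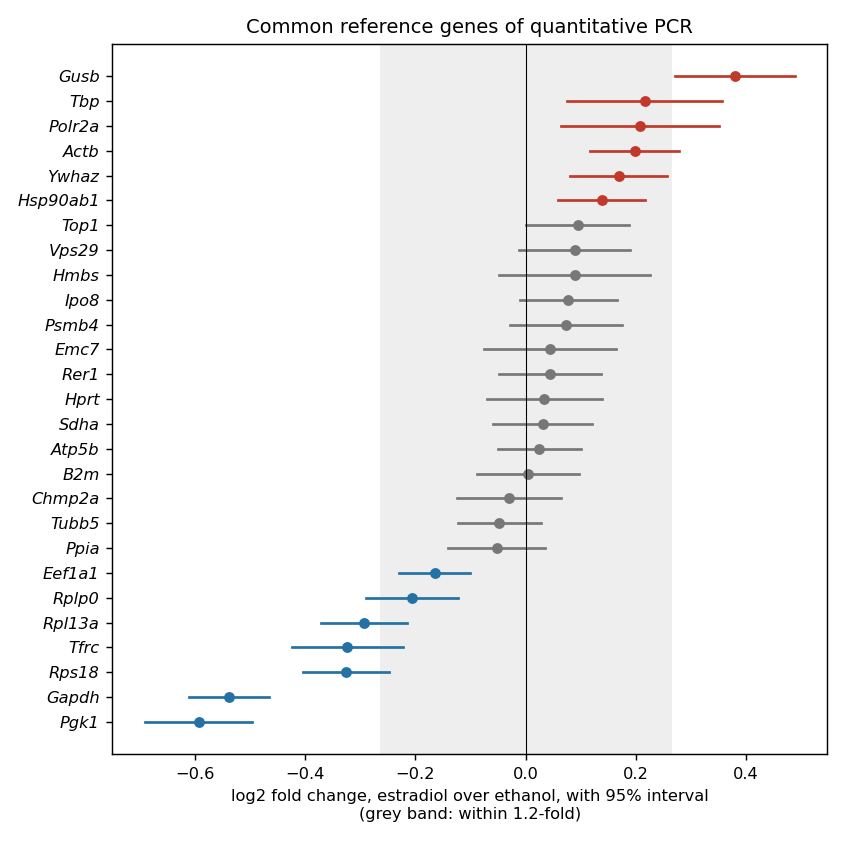
Log2 fold change (estradiol over ethanol) with its 95% interval for 27 of the 28 reference genes, red where higher, blue where lower and grey where not called; the band marks changes of less than 1.2-fold. Gapdh and Pgk1 lie lowest and Gusb highest, and all 14 grey intervals lie inside the band.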

How the data were processed

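Polyadenylated RNA of 6 libraries was analysed, grouped by sample titles; the other 12 libraries of the series were not used. The submitters' processing notes list the build GRCm39, and kallisto, DESeq2, Trim Galore, cutadapt, MultiQC and FastQC, with neither version nor role. The deposited values are the authors' estimated counts per gene, 32.2% of them not whole, and a normalized signal. That signal is those counts divided by factors that differ by gene and library. Relative to the median factor of each library, nearly all factors of well-counted genes lay between 0.771 and 1.26. How reads shared by near-identical or overlapping genes were assigned is not stated.

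Counts were rounded. R 4.3.3 with edgeR 4.0.16 was used: filterByExpr, TMM, and the quasi-likelihood test (glmQLFit, glmQLFTest) on the 2 groups with no covariates, with a Benjamini-Hochberg adjusted p under 0.05 over all 15358 genes tested. "Rose", "fell" and "called" mean past that threshold. Symbols came from the file (39334 features) or from an identifier table (12739), and 4618 features had none. On simulated data with 200 changed genes the test recovered 65.1 to 79.3% per fold size and called 0.0858% of the others. Intervals on counts cover counting error only.

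The genes named are the largest changes in bands of abundance, the members of each list or symbol family with the lowest p in each direction, the largest gains and losses in CPM, on or off genes, and all receptors and reference genes listed. Genes whose call was lost in an alternative were mostly left out. The values of a few list members are not reported here. Promoters beyond Gbp2, and the genes shown with them, were chosen after their values were seen. The lists and the rule were chosen with earlier results of these data known, and lists were described, not tested. Alternatives were no filter, at least 1 CPM in 3 libraries, RLE factors, DESeq2 1.42.0, an adjusted p under 0.01, the replicate number as a block, limma 3.58.1 on the deposited signal (log2 after adding 1, for genes with a mean of 10 or more), the length factors recovered from the deposited tables, the most abundant feature left out, and each library left out. Leaving out 6 ribosomal or repeat-like features was added after the data were seen.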

Additional observations from a re-analysis of the deposited data

How the results depend on the processing

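The 2668 rises and 2552 falls stayed within 1.5 times in all alternatives but these. With an adjusted p under 0.01, 1739 genes rose and 1658 fell. Falls numbered 1677 with limma on the deposited signal and 1691 with the recovered length factors. With each library left out in turn, 2119 to 2511 genes rose and 2051 to 2317 fell. No alternative called a gene in the opposite direction, and DESeq2 shared 79.3% of the rises and 71.8% of the falls. With the recovered length factors further counts moved by over 1.5 times: falls of immediate early genes from 7 to 4, of other nuclear receptors from 8 to 5, of potassium channels from 11 to 7, of integrin genes from 5 to 3, of cadherin genes from 4 to 2 and of coat genes from 3 to 1, and rises of chromatin genes from 8 to 5 and of zinc finger genes from 19 to 11.

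With the replicate number as a block, 2422 genes rose and 2334 fell. Deviations from the group mean of libraries with the same number correlated by -0.027, -0.0097 and -0.017, so the numbers were not taken to pair the samples. Depth limits genes under 1 CPM, of which 64 rose and 125 fell among 1685 tested.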

Other observations

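Guanylate-binding proteins and immunity-related GTPases, which attack membranes of intracellular pathogens, rose in 9 of 16 tested features and fell in 0 (median log2 0.52). Igtp had 17.7, 21.9 and 20.8 CPM in ethanol replicates 1 to 3 and 35.1, 36.9 and 33.8 CPM in estradiol replicates 1 to 3 (log2 fold change 0.81, SE 0.076, adjusted p = 1.4e-06). Usp18, which encodes a protease that removes ISG15 from proteins and dampens interferon signalling, rose from 18.8 to 38.5 CPM (log2 1.03, SE 0.12), and 16 of 46 ubiquitin-specific protease genes rose in all, 10 without ethanol replicate 2 or estradiol replicate 1. Eif2ak2, the kinase gene that senses double-stranded RNA, rose from 71.8 to 99.1 CPM (log2 0.47). Irf1 went the other way (from 68.3 to 59.7 CPM, log2 -0.20, SE 0.045), and it was the 1 interferon gene of the list that fell. The summed level of immune markers stayed below 5 CPM in every library, and the part of immune cells in these rises was not tested.

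Regulators of G protein signalling rose in 5 and fell in 2 of 12 genes: Rgs12 rose from 63.2 to 89.0 CPM and Rgs3 from 17.3 to 27.8 CPM, while Rgs2 fell from 19.9 to 13.2 CPM (log2 0.49, 0.68 and -0.59). Serpins rose in 6 and fell in 1 of 18 (38.9% called, near the 34% of all genes tested). Serpinb2, known as plasminogen activator inhibitor 2, rose from 12.1 to 24.8 CPM (log2 1.03, SE 0.11). LIM domain genes were split: Lmo7 rose from 29.3 to 52.2 CPM (log2 0.83, SE 0.06) and Pdlim3, a protein of contractile filaments, had 42.4, 44.3 and 44.2 CPM with ethanol and 14.3, 15.7 and 16.6 CPM with estradiol (log2 fold change -1.49, SE 0.065, adjusted p = 4.0e-10). Ptprz1, a receptor phosphatase gene, fell from 26.4 to 13.7 CPM (log2 -0.94, SE 0.075), and Espn, which bundles actin in microvilli, fell from 70.0 to 31.9 CPM (log2 -1.13, SE 0.063).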
